A study of Homo sapiens with 4 samples.

Results

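The 10 genes described here encode the machinery of V(D)J recombination: the recombinase genes RAG1 and RAG2, the template-free polymerase gene DNTT, and the end-joining genes XRCC5, XRCC6, PRKDC, DCLRE1C, XRCC4, LIG4 and NHEJ1. They were chosen by symbol, and each of the 10 matched 1 of the 28814 rows of the count table. The counts came from RNA-seq of 697 cells, an established human line of B-cell precursor acute lymphoblastic leukaemia. One group received 1 µM MZ1 for 24 h (2 libraries), and the other received an equal volume of the solvent DMSO for 24 h (2 libraries). MZ1 is a degrader built from a BET bromodomain binder and a VHL binder, and it directs BET proteins to the proteasome. All libraries came from this single line. The labels do not say that replicates were separate cultures, so the p-values reflect how far these 4 libraries differ, and that spread may be technical.

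V(D)J recombination builds antigen receptor genes in developing lymphocytes. The RAG1 and RAG2 proteins cut DNA beside receptor gene segments in the G1 phase and leave hairpin-sealed coding ends. The Ku heterodimer binds the ends and recruits DNA-PKcs, which activates the nuclease Artemis to open the hairpins. Terminal transferase, the DNTT product, adds untemplated bases, and ligase IV with XRCC4 and XLF seals the joint. RAG1, RAG2 and DNTT are restricted to lymphoid precursors, whereas the end-joining factors repair double-strand breaks in nearly all cells.

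RefSeq promoter windows (GRCh38.p14, 250 bases before to 50 after a start) were found for 8 of the 10 genes, all except XRCC5 and PRKDC. They are printed for 5 genes: DNTT, which fell most, RAG2, which did not fall, and the end-joining genes XRCC6, LIG4 and XRCC4, which fell and start close to a gene on the opposite strand. The windows lie at chr10:96304184-96304483 (DNTT, plus strand), chr11:36598187-36598486 (RAG2, minus strand), chr22:41621045-41621344 (XRCC6, plus strand), chr13:108218300-108218599 (LIG4, minus strand) and chr5:83077297-83077596 (XRCC4, plus strand). Capitals mark every match on either strand to CACGTG (the E-box of MYC and MAX), CAGGTG (an E-box of E proteins), TGGGAA (the Ikaros core), GTAAACA (forkhead factors), GGGCGG (the GC box) or TATAAA (the TATA box).
DNTT: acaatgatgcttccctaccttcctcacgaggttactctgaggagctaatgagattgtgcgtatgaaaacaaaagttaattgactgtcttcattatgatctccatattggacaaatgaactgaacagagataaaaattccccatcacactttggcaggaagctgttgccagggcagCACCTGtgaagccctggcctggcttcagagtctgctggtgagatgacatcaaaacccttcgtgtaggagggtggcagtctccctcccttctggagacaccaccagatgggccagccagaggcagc
RAG2: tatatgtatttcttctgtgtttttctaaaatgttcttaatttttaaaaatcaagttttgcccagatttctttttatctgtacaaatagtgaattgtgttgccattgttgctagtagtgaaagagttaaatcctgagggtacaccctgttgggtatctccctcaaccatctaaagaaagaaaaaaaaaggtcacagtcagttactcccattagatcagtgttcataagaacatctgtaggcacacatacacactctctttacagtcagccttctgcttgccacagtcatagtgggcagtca
XRCC6: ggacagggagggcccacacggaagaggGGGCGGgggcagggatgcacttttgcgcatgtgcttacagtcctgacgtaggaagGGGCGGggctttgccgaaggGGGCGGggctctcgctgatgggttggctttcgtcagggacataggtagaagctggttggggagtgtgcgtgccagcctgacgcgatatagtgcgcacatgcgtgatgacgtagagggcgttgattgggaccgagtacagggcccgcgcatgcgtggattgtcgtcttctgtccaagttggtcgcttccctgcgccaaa
LIG4: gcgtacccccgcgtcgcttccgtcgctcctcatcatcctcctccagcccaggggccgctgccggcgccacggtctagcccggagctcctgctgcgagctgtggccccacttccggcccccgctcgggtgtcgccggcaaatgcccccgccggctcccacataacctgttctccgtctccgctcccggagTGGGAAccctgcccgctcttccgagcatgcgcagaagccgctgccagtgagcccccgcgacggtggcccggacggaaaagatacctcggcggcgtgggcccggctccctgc
XRCC4: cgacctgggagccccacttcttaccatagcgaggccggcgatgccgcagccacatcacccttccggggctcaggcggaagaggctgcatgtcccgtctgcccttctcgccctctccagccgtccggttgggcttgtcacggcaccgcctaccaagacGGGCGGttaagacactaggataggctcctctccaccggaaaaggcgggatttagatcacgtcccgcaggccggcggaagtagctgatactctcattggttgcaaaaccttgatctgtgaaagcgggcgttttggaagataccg
The RAG2 window held 0 CpG dinucleotides and 36.7% G and C, and the DNTT window held 3 CpG and 49.3% G and C. The XRCC6, LIG4 and XRCC4 windows held 23, 35 and 24 CpG and 62.0%, 72.3% and 60.7% G and C. Over all 35116 windows the medians were 14 CpG and 58.7% G and C, so the windows of DNTT and RAG2 lay below the medians and these 3 above them. Not every window of the 8 genes followed its class, lymphoid or end-joining. The DCLRE1C window nearest its annotated start held 11 CpG and 47.0% G and C, but its other window held 27 CpG and 65.7%. The RAG1 window, at an upstream start, held 32 CpG and 72.3% G and C. That window also contains the annotated start of TRAF6, a gene on the opposite strand. LIG4 has 5 windows, of which the most upstream is printed. In the printed windows XRCC6 had 3 GC boxes and XRCC4 had 1, a motif found in 44.95% of all windows. DNTT had 1 CAGGTG match 75 to 70 bases before its start, on the opposite strand, and this motif is in 20.6% of windows. LIG4 had 1 TGGGAA match (24.0% of windows), and RAG2 had no match to any of the 6 motifs. CACGTG was in none of the windows of the 8 genes and in 7.26% of all windows, and a missing match says only that these letters are not in the window. The RAG1 window is not shown because it lies at an upstream start, 57.7 kb from where the protein-coding transcript begins in GENCODE 29 (position 36568025 on chromosome 11).

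Depth was 14544789 and 14246367 counted reads in the MZ1 libraries and 16005427 and 16488005 in the DMSO libraries. Levels are given in CPM, reads on a gene scaled to a common library size with TMM factors, and a gene was called when edgeR's quasi-likelihood test gave a Benjamini-Hochberg adjusted p below 0.05 over all 16862 tested genes. A level is a share of its library, as the labels mention no spike-in, and in bulk RNA fewer cells of a kind and less RNA per cell cannot be told apart. The response was wide, with 84.2% of tested genes called, 42.8% higher and 41.3% lower, and upper-quartile scaling moved the log2 fold changes up by a median of 0.27. Of 12 markers of B-cell precursors 11 had a row and all 11 were lower, at a summed level of 1202 to 1215 CPM with MZ1 and 2901 to 2914 CPM with DMSO. T-cell markers summed to 4.70 to 5.16 CPM with MZ1 and 7.43 to 7.64 CPM with DMSO (4 of 9 with a row; 2 higher, 1 lower), with TRAC at 0 counts in MZ1 and CD8B at 0 in DMSO. Myeloid markers summed to 24.9 to 28.4 CPM with MZ1 and 5.31 to 6.66 CPM with DMSO (6 of 7 with a row; 4 higher, 1 lower), with MPO and CD68 at 0 counts in DMSO. Erythroid and stromal markers summed to 16.7 to 17.5 CPM with MZ1 and 11.1 to 12.6 CPM with DMSO (5 of 7 with a row; 1 higher, 0 lower), with HBA1 and DCN among those at 0 in DMSO. The part of these shifts in the results below was not tested.

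With TMM scaling the recombinase transcripts stayed near their DMSO level, terminal transferase fell 13.8-fold, and most end-joining genes fell 1.73-fold to 5.21-fold. Of the 10 genes 7 were called lower and 2 higher, beside 84.2% of all tested genes called, so the share of calls is close to the background. Only 1 of the 10 was called higher with library totals, without a count filter, with at least 50 counts, with DESeq2 or without DMSO replicate 2, and 0 without MZ1 replicate 2, whereas 3 were called higher with upper-quartile scaling. Calls of at least 2-fold lower made up 5 of the 10 genes and 26.2% of all tested genes. The groups did not overlap for 9 of the 10 genes, against 91.3% of all tested genes. The median log2 fold change (MZ1 over DMSO) was -1.03 for the 10 genes, 0.05 for all tested genes and -0.20 for the 12639 protein-coding genes among them. Of those 12639 genes 6165 were called lower, 3774 of them at least 2-fold, and 4866 higher. Protein-coding genes thus leaned lower, and the shares of all tested genes, here and below, include other gene types. All 10 passed the count filter, NHEJ1 only through its MZ1 libraries.

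**Figure D1:**
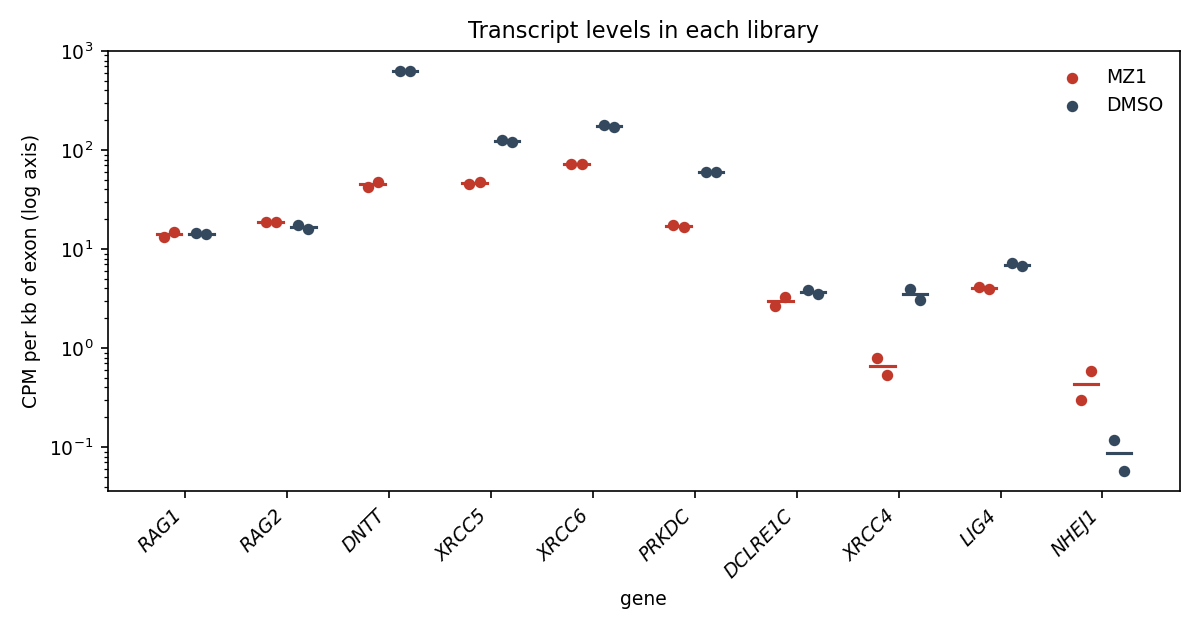
Level of each gene in each library, in CPM per kb of exon on a log axis, with MZ1 libraries left of DMSO libraries; points are libraries and lines the means of 2. RAG1 and RAG2 lie at similar heights in both groups, whereas the DNTT points lie at 42.8 and 47.9 with MZ1 and at 631 and 621 with DMSO.

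RAG1, the subunit that carries the catalytic site (ENSG00000166349; chromosome 11, 36510709 to 36593156, plus strand, GRCh38), was at 104 and 117 CPM in the MZ1 libraries and at 112 and 111 CPM in the DMSO libraries. The groups overlapped, since the MZ1 libraries lay on either side of the DMSO ones. The log2 fold change was -0.01 ± 0.05 (SE, n = 2 per group; edgeR adjusted p = 0.809), with a 95% interval of the ratio of 0.915 to 1.07. That interval holds for TMM scaling: with upper-quartile scaling RAG1 was called higher by 0.26 (edgeR adjusted p = 1.90e-04).

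RAG2, the partner that reads trimethylated histone H3 (ENSG00000175097; chromosome 11, 36575574 to 36598279, minus strand), was at 65.1 and 66.1 CPM with MZ1 and at 61.6 and 55.5 CPM with DMSO. Both MZ1 libraries were above both DMSO libraries by a small margin, and RAG2 was called higher by 0.16 ± 0.07 on the log2 scale (SE, n = 2 per group; edgeR adjusted p = 0.0231; ratio 1.12, 95% interval 1.02 to 1.23). The call was lost when libraries were scaled by their totals (0.087), when no count filter was used (0.087) and with DESeq2 (adjusted p = 0.0776). It was also lost without DMSO replicate 2 (0.051) and without MZ1 replicate 2 (0.15). With upper-quartile scaling RAG2 was called higher by more, 0.44 (edgeR adjusted p = 2.13e-06), and with at least 50 counts by 0.21. RAG2 shares 26.0% of its exonic length with opposite-strand genes, 16.8% with RAG1 and 9.17% with IFTAP, and RAG1 shares 7.52% of its own with RAG2. The counting is not stated to use strand, so reads from the shared parts cannot be told apart.

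DNTT, which encodes terminal transferase (ENSG00000107447; chromosome 10, 96304396 to 96338564, plus strand), had 84.3 and 94.4 CPM with MZ1 and 1244 and 1224 CPM with DMSO. In counts this was 1192 and 1306 reads with MZ1 and 20363 and 20749 reads with DMSO. The groups were far apart, and the log2 fold change was -3.79 ± 0.05 (SE, n = 2 per group; edgeR adjusted p = 1.63e-27). Only 2.83% of all tested genes had a lower log2 fold change. With DMSO its level per kb of exon exceeded that of 99.7% of tested protein-coding genes, and with MZ1 it still exceeded that of 94.99%. DNTT shares no exonic sequence with another gene and its start carries no annotated gene on the opposite strand within 1000 bases.

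DNTT belongs to polymerase family X with POLB, POLL and POLM, which fill gaps in base excision repair and end joining. POLB rose 2.05-fold, at 35.7 and 41.0 CPM with MZ1 and 18.6 and 18.7 CPM with DMSO. POLM was higher 1.56-fold and POLL lower 1.32-fold, 2 genes named here after their values were seen. The POLL call was lost with upper-quartile scaling (-0.13), with DESeq2 (-0.37), without DMSO replicate 2 (-0.31) and without MZ1 replicate 1 (-0.26).

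The Ku genes fell by similar amounts. XRCC5, which encodes Ku80 (ENSG00000079246; chromosome 2, 216107464 to 216206303, plus strand), was at 247 and 259 CPM with MZ1 and at 687 and 656 CPM with DMSO, a 2.65-fold fall (log2 fold change -1.41 ± 0.04, SE; edgeR adjusted p = 2.87e-20). XRCC6, which encodes Ku70 (ENSG00000196419; chromosome 22, 41621119 to 41664048, plus strand), was at 240 and 236 CPM with MZ1 and at 590 and 562 CPM with DMSO, a 2.42-fold fall (-1.28 ± 0.04, SE; edgeR adjusted p = 1.83e-19). For both genes every MZ1 library was below every DMSO library. The 2 XRCC6 pseudogene rows had 0 reads with MZ1 and at most 3 in a DMSO library.

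PRKDC, the gene of the DNA-PKcs kinase (ENSG00000253729; chromosome 8, 47773108 to 47960183, minus strand), had 268 and 259 CPM with MZ1 and 926 and 930 CPM with DMSO. It fell 3.52-fold (log2 fold change -1.81 ± 0.04, SE; edgeR adjusted p = 5.60e-23), the largest fall after DNTT and XRCC4 among the 10 genes. DCLRE1C, which encodes the hairpin-opening nuclease Artemis (ENSG00000152457; chromosome 10, 14897359 to 14954432, minus strand), had 16.9 and 20.6 CPM with MZ1 and 24.2 and 22.4 CPM with DMSO. The DCLRE1C groups were close without overlapping, and the gene was called lower by a factor of 0.805 (95% interval 0.685 to 0.947; edgeR adjusted p = 0.0137). That call was lost with upper-quartile scaling (-0.041), with DESeq2 (adjusted p = 0.128) and without MZ1 replicate 1 (-0.17). A row for its pseudogene copy DCLRE1CP1 went the other way, with 50 and 44 reads with MZ1 and 0 and 2 reads with DMSO, so how reads are divided between the gene and its copy is uncertain.

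The ligation genes did not move by one amount. XRCC4, the scaffold of the ligase (ENSG00000152422; chromosome 5, 83077498 to 83353787, plus strand), had 30 and 20 reads with MZ1 and 171 and 140 reads with DMSO, or 2.12 and 1.45 CPM with MZ1 and 10.4 and 8.26 CPM with DMSO. It fell 5.21-fold (log2 fold change -2.38 ± 0.24, SE; edgeR adjusted p = 1.92e-09), with a wide 95% interval of the ratio of 0.135 to 0.271 at these low counts. LIG4, which encodes the DNA ligase itself (ENSG00000174405; chromosome 13, 108207439 to 108218368, minus strand), had 18.0 and 17.2 CPM with MZ1 and 31.6 and 29.4 CPM with DMSO. LIG4 fell 1.73-fold (-0.79 ± 0.10, SE; edgeR adjusted p = 1.06e-07), and its libraries separated fully by group.

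NHEJ1, the gene of the ligation cofactor XLF (ENSG00000187736; chromosome 2, 219075317 to 219160865, minus strand), was close to 0 in this table, with 13 and 25 reads with MZ1 and 6 and 3 reads with DMSO. Of its exonic length, 65.4% is shared with ENSG00000280537, an overlapping gene on the same strand that spans 219075329 to 219170827 and had 17 and 14 reads with MZ1 and 3 and 4 reads with DMSO. The NHEJ1 row is therefore an uncertain measure of XLF mRNA. Having passed the count filter only through its MZ1 libraries, it could be tested only because it was higher there (log2 fold change 2.30, 95% interval 1.16 to 3.51; edgeR adjusted p = 5.97e-04), and the call was lost without MZ1 replicate 2 (1.74; adjusted p = 0.0582).

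**Figure D2:**
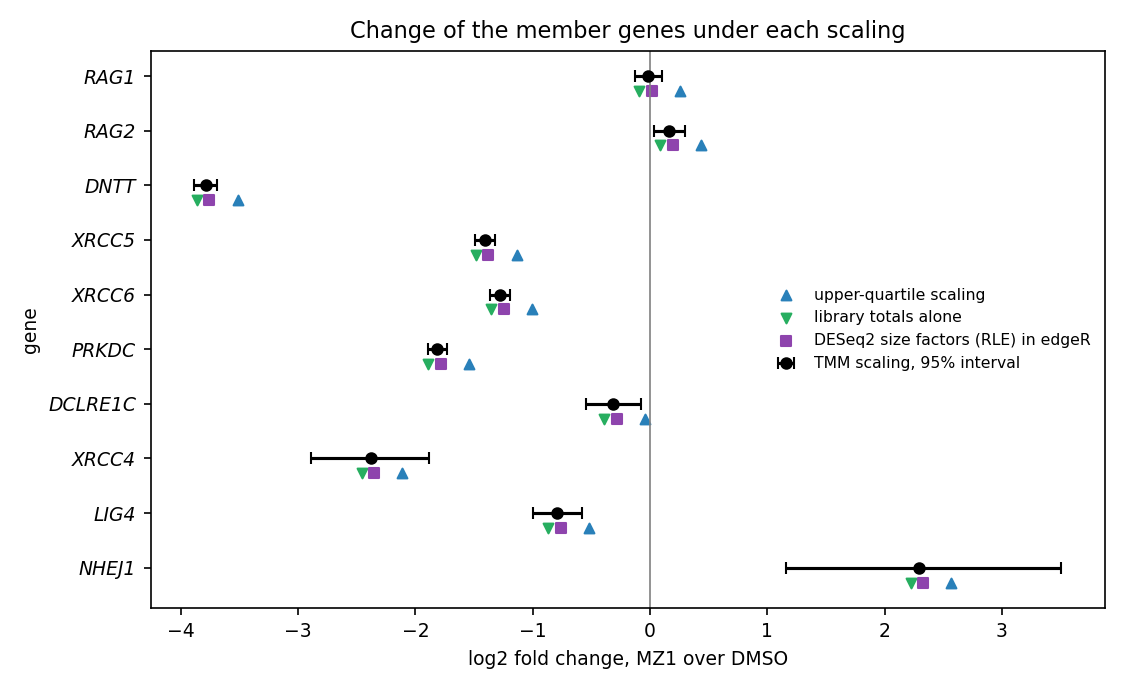
Log2 fold change of each gene, MZ1 over DMSO; black points with bars are the edgeR estimate and 95% interval with TMM scaling, and coloured symbols the estimate with other scalings. RAG1 and RAG2 lie closest to 0 with TMM scaling, DNTT lies at -3.79, and upper-quartile scaling moves every gene up.

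The order of the levels changed between the groups. Per kb of exon with MZ1, XRCC6 stood highest at 72.3 ± 0.79 CPM per kb (SD, n = 2), followed by XRCC5 at 46.3 ± 1.5 and DNTT at 45.3 ± 3.6, whose libraries overlapped. RAG2 (18.7 ± 0.21), PRKDC (17.1 ± 0.42) and RAG1 (14.2 ± 1.1) came next without overlap between neighbours, then LIG4 (4.02 ± 0.13) and DCLRE1C (2.96 ± 0.41). XRCC4 (0.667 ± 0.18) and NHEJ1 (0.438 ± 0.20) were lowest and overlapped. With DMSO, DNTT stood highest at 626 ± 7.1 CPM per kb (SD, n = 2), ahead of XRCC6 (175 ± 5.9), XRCC5 (123 ± 4.0) and PRKDC (60.2 ± 0.19). RAG2 (16.7 ± 1.2), RAG1 (14.3 ± 0.10) and LIG4 (6.96 ± 0.36) followed, and DCLRE1C (3.68 ± 0.20) and XRCC4 (3.50 ± 0.58) overlapped, with NHEJ1 lowest at 0.087 ± 0.043. DNTT thus ranked above both Ku genes with DMSO and next to Ku80 with MZ1. The divisor is the union of annotated exons, which includes rare transcripts, so levels between genes are approximate.

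Ratios between genes of the same library do not depend on the scaling of libraries. The ratio of DNTT to RAG1, per kb of exon, was 3.200 and 3.197 with MZ1 and 43.9 and 43.6 with DMSO, a pair added after the values were seen. XRCC4 relative to its partner LIG4 was at 0.193 and 0.138 with MZ1 and at 0.541 and 0.461 with DMSO. PRKDC relative to XRCC6 was at 0.239 and 0.234 with MZ1 and at 0.335 and 0.353 with DMSO. In these 3 pairs the groups were well apart, the numerator being lower with MZ1. RAG1 relative to RAG2 was at 0.719 and 0.793 with MZ1 and at 0.817 and 0.898 with DMSO, and XRCC5 relative to XRCC6 at 0.621 and 0.660 with MZ1 and at 0.701 and 0.702 with DMSO. These differences were small, -0.18 and -0.13 on the log2 scale, though the groups did not overlap. The exact two-sided permutation test gave p = 0.333 for each of the 5 ratios, also after Benjamini-Hochberg adjustment, which is the smallest p that 2 libraries against 2 allow.

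**Figure D3:**
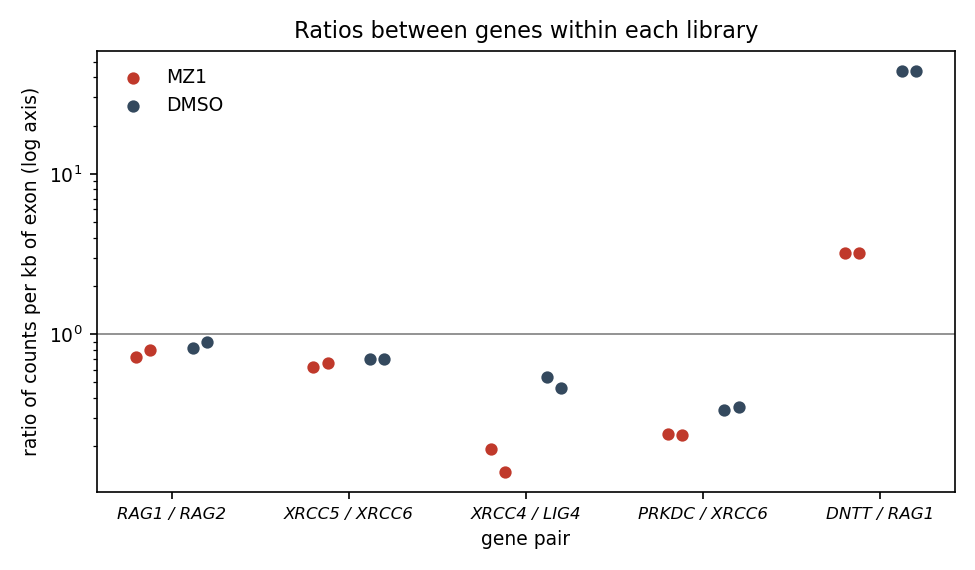
Ratio of counts per kb of exon between the genes of 5 pairs in each library, on a log axis, with MZ1 left of DMSO. The DNTT to RAG1 ratio lies near 3.2 with MZ1 and near 43.7 with DMSO, while the RAG1 to RAG2 and XRCC5 to XRCC6 ratios lie close together in the 2 groups.

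Of the 10 genes 5 start within 1000 bases of a gene on the opposite strand. PRKDC starts 2 bases from MCM4, a subunit of the replicative helicase, which had 106 and 95.5 CPM with MZ1 and 517 and 513 CPM with DMSO and fell 5.12-fold. LIG4 starts 11 bases from ABHD13, which had 12.3 and 11.4 CPM with MZ1 and 18.6 and 19.5 CPM with DMSO and fell 1.61-fold. XRCC6 starts 23 bases from DESI1, a deSUMOylating peptidase, which had 34.7 and 32.8 CPM with MZ1 and 50.4 and 48.7 CPM with DMSO and fell 1.47-fold. In these 3 closest pairs both genes were called lower, where 41.3% of all tested genes were lower. PRKDC fell less than MCM4 and XRCC6 more than DESI1, differences that were not themselves tested. XRCC4 starts 365 bases from TMEM167A, which had 65.9 and 71.3 CPM with MZ1 and 81.4 and 73.9 CPM with DMSO. TMEM167A was called lower by only 0.18 on the log2 scale (edgeR adjusted p = 0.0109), its direction turned with upper-quartile scaling (0.092), and the call was lost with at least 50 counts, with DESeq2, without DMSO replicate 1 and without MZ1 replicate 1. RAG1's far-upstream start lies 437 bases from TRAF6, a ubiquitin ligase of innate signalling, which had 39.7 and 43.0 CPM with MZ1 and 22.4 and 23.1 CPM with DMSO and rose 1.82-fold, while RAG1 was not called.

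**Figure D4:**
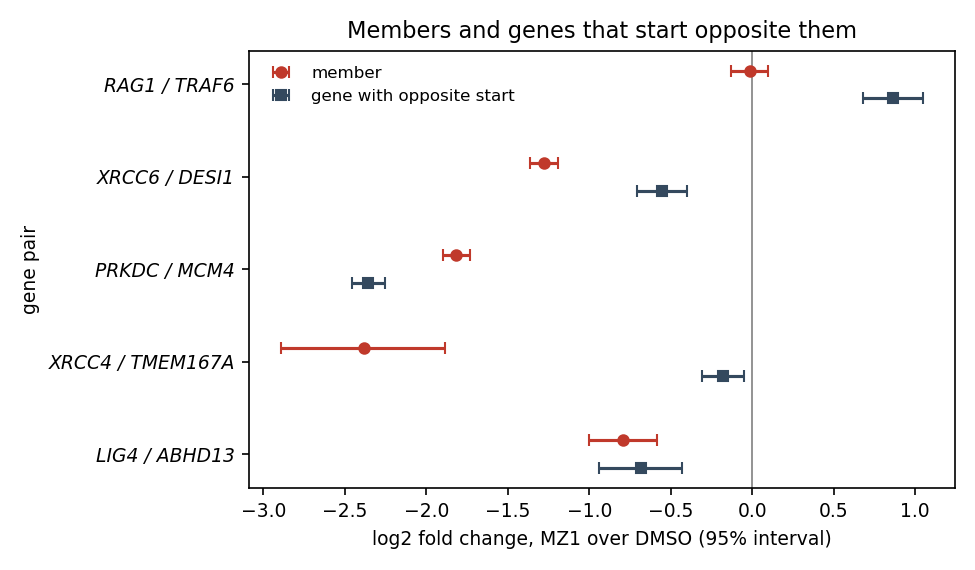
Log2 fold change, MZ1 over DMSO, with its 95% interval (edgeR, TMM scaling) for 5 of the genes (circles) and for the gene that starts opposite each of them (squares). The LIG4 and ABHD13 intervals overlap, and those of the other 4 pairs do not.

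Accessory end-joining factors were called in both directions, 8 of 13 lower and 5 higher (median log2 fold change -0.40), where 41.3% of all tested genes were lower and 42.8% higher. The number lower was 6 with upper-quartile scaling, with DESeq2, without DMSO replicate 2 and without MZ1 replicate 1. PAXX, a Ku-binding paralog of XRCC4 and XLF, fell 3.40-fold, at 16.7 and 17.5 CPM with MZ1 and 53.0 and 63.1 CPM with DMSO. SETMAR fell 2.94-fold and TDP1, which clears topoisomerase adducts from ends, 2.27-fold. APLF, a scaffold that binds Ku and poly(ADP-ribose), rose 4.54-fold, at 28.4 and 23.9 CPM with MZ1 and 6.60 and 4.96 CPM with DMSO, with 22.8% of its exonic length shared with other genes.

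Genes of break signalling and end protection included 15 lower and 4 higher of 19 (median -1.03), with 2 higher when no count filter was used, beside 41.3% lower and 42.8% higher over all tested genes. The number lower was 12 with upper-quartile scaling. RBBP8, which encodes the resection factor CtIP, fell 4.36-fold, at 17.8 and 18.1 CPM with MZ1 and 79.0 and 77.8 CPM with DMSO. NBN of the MRN complex fell 3.28-fold and RIF1, which acts with 53BP1 to protect ends, fell 3.11-fold. KMT5A, the histone H4 methyltransferase that prepares 53BP1 binding, rose 1.65-fold, RNF168, which ubiquitylates histones at breaks, 1.62-fold, and H2AX 1.14-fold, a call that was lost when no count filter was used (adjusted p = 0.0508). RAD50, named after its values were seen, had 8 and 10 reads with MZ1 and 43 and 28 reads with DMSO. It is among the 15 lower, but its MZ1 libraries alone would not have passed the count filter. The RAD50 row is also uncertain, since 79.7% of its exonic length lies in another annotated gene.

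Of 11 genes of alternative end joining 8 were lower and 3 higher (median -0.79), against shares of 41.3% lower and 42.8% higher among all tested genes. LIG3, the ligase of this route, fell 6.28-fold, at 10.3 and 9.32 CPM with MZ1 and 61.0 and 62.5 CPM with DMSO, with 30.5% of its exonic length shared with other genes. LIG1 fell 3.14-fold and the flap nuclease gene FEN1 3.11-fold. POLQ, the polymerase that defines theta-mediated joining, rose 1.54-fold, at 121 and 114 CPM with MZ1 and 72.7 and 79.4 CPM with DMSO. HMCES, which shields abasic sites, rose 1.97-fold and XRCC1, the scaffold of LIG3, 1.19-fold. The XRCC1 call was lost without DMSO replicate 1 or 2 (edgeR adjusted p = 0.0527 and 0.0722), and other genes cover 24.0% of its exons.

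Among 11 RAG cofactors and turnover genes 8 were lower and 0 higher by edgeR at the adjusted threshold (median -0.79), and the 8 calls of 11 compare with 84.2% called, 41.3% lower and 42.8% higher, over all tested genes. HMGB1, a DNA-bending cofactor of the recombinase, fell 2.40-fold, at 484 and 488 CPM with MZ1 and 1183 and 1145 CPM with DMSO. Its paralog HMGB2, named after its values were seen, was at 685 and 691 CPM with MZ1 and 690 and 674 CPM with DMSO (edgeR adjusted p = 0.751). KPNA1 and CCNE2, with 16.3% and 37.1% of their exonic length shared with other genes, were not called either (edgeR adjusted p = 0.327 and 0.829). With upper-quartile scaling these 3 genes were called higher, by 0.28, 0.21 and 0.25 on the log2 scale. With library totals KPNA1 was instead called lower, and 9 of the 11 genes were lower. DCAF1, which tethers RAG1 to a cullin ligase, and CUL4A, the cullin, fell 4.85-fold and 4.83-fold. Other genes share 19.3% of the exonic length of DCAF1.

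Factors known to regulate the RAG genes or DNTT numbered 22 tested genes, 16 of them lower and 6 higher (median -0.78), with GFI1B not tested. The number lower was 13 with upper-quartile scaling and 14 with at least 50 counts. SPI1, among the 16, had 1 and 2 reads with MZ1 and 19 and 16 reads with DMSO. It passed the count filter only through its DMSO libraries, so it could be tested only because it was higher there. Over all tested genes 41.3% were lower and 42.8% higher. IKZF1 (Ikaros), which binds the Dntt promoter in mice, was at 8.70 and 9.83 CPM with MZ1 and 142 and 133 CPM with DMSO. RUNX1 was at 140 and 135 CPM with MZ1 and 518 and 510 CPM with DMSO, and NFKB1 at 52.1 and 50.6 CPM with MZ1 and 205 and 204 CPM with DMSO. FOXO1, which activates Rag transcription in mice, was at 154 and 155 CPM with MZ1 and 62.2 and 65.7 CPM with DMSO. IRF4 was at 1008 and 971 CPM with MZ1 and 74.7 and 71.2 CPM with DMSO, and IRF8 at 52.7 and 42.5 CPM with MZ1 and 19.5 and 17.1 CPM with DMSO. The MZ1 libraries were on 1 side of the DMSO libraries for each of these 6 genes, and all 6 were called, IKZF1, RUNX1 and NFKB1 lower and the others higher.

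**Figure D5:**
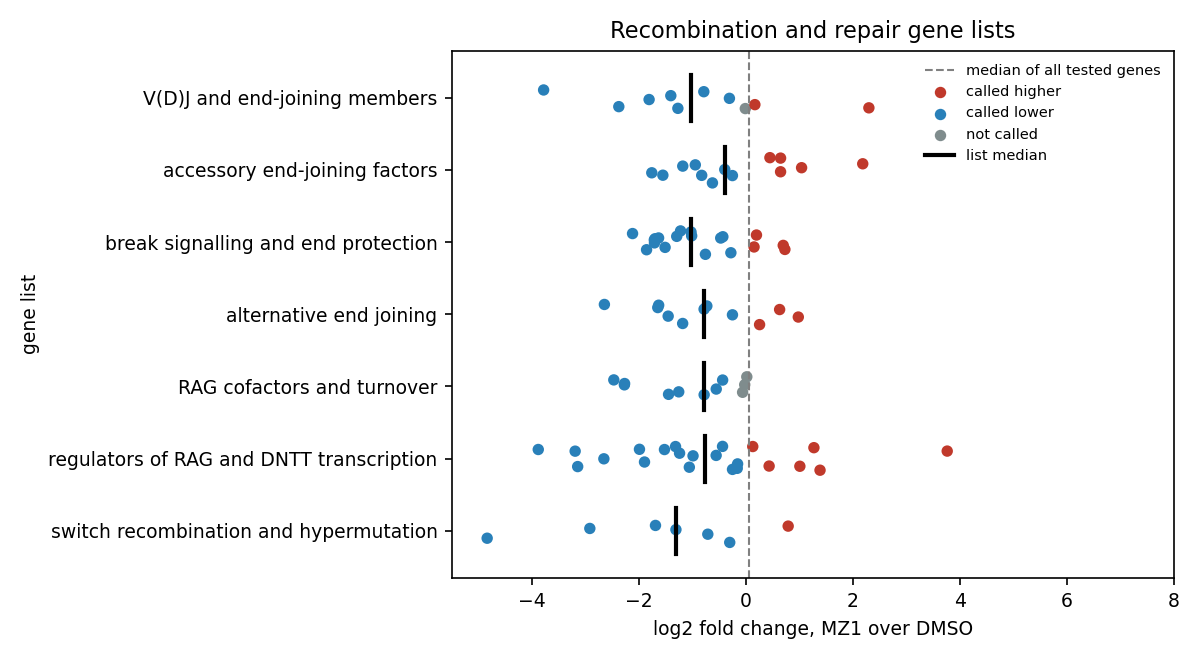
Log2 fold change, MZ1 over DMSO, of each tested gene of the 10 and of 6 related lists; points are genes coloured by call, thick bars list medians and the dashed line the median of all tested genes. Every list median lies below the dashed line, between -1.31 and -0.40, and each list except that of RAG cofactors also has genes called higher.

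By distance between profiles over the 4 libraries, centred on the DMSO mean, the closest of 9256 protein-coding genes to DNTT included GPATCH4 and the nuclear import receptor gene IPO8, at distances of 0.069 and 0.081 on the log2 scale. Those closest to RAG1 included AGFG1 and PDRG1, and closest to RAG2 were the apoptotic caspase gene CASP8, DOP1B and the transcription factor gene SP3, all 5 at distances of 0.023 to 0.036. GPATCH4, nearest to DNTT, was at 7.43 and 7.88 CPM with MZ1 and 105 and 107 CPM with DMSO. With 4 libraries such a distance reflects the size of the treatment difference. For genes that changed little, such as RAG1 and RAG2, it also reflects differences between replicates.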

How the data were processed

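RNA-seq counts of 4 libraries of 697 cells were used, grouped by title into MZ1 (2) and DMSO (2). The table deposited by the authors holds unnormalised counts of reads, 1 row per Ensembl gene, per the file headers. Per the submitters' processing notes, HISAT2 2.2.0 and hg38 were used. What counted the reads, with which annotation and strand setting, is not given in the sources used here. Each of the 28814 IDs matched GENCODE 29 (on GRCh38, which is hg38), the source of positions, exon lengths and exon sharing.

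Counts were fitted in R 4.3.3 with edgeR 4.0.16: filterByExpr by group (16862 genes kept), TMM scaling, and the quasi-likelihood test with treatment as its single term and Benjamini-Hochberg adjustment across every tested gene. Replicates differed by more than sampling noise (chi-square per degree of freedom 2.17 for MZ1 and 2.44 for DMSO), and the biological coefficient of variation was 3.79%. The fit was tested on simulated counts in which few genes changed, evenly in both directions. That test cannot check the scaling for these data, where 84.2% of tested genes were called. Alternatives changed the scaling, the filter, the tool (DESeq2 1.42.0, limma-voom in limma 3.58.1), the replicate block and the libraries used. Intervals of 95% are from the fit. Promoter windows are RefSeq's, matched by symbol in Python 3.11.15.

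Genes named beside the 10 are, per list, up to 3 each way by smallest adjusted p, genes with an opposite start within 1000 bases, and the 3 most alike profiles of RAG1, RAG2 and DNTT (log2 of CPM plus 0.1, mean log2 CPM of at least 3). Some genes that this rule names are not reported here. Genes and lists were chosen with earlier results of these data known.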

Additional observations from a re-analysis of the deposited data

How the results depend on the processing

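The small changes moved with the scaling, the tool and the libraries used. RAG1, at -0.01 on the log2 scale, was at 0.26 with upper-quartile scaling (edgeR adjusted p = 1.90e-04), 0.014 with DESeq2 size factors, 0.014 with DESeq2, 0.035 with at least 50 counts, and -0.099 to 0.072 without each library in turn. RAG2 lost its call with scaling by totals (0.087), when no count filter was used (0.087) and with DESeq2 (0.19). It also lost it in 2 of 4 fits without 1 library (0.051 to 0.19). With upper-quartile scaling RAG2 was at 0.44 (edgeR adjusted p = 2.13e-06). DCLRE1C lost its call with upper-quartile scaling (-0.041), DESeq2 (-0.28) and without MZ1 replicate 1 (-0.46 to -0.17 over the 4 fits). NHEJ1 ranged from 1.74 to 2.84 without each library and fell under the filter of 50 counts. Genes called higher among the 10 numbered 1 with library totals, without a filter, with at least 50 counts and with DESeq2, 3 with upper-quartile scaling, and 0 to 2 without each library. Break signalling genes called higher numbered 2 without a count filter, and RAG cofactors 3 with upper-quartile scaling. TMEM167A turned to 0.092 with upper-quartile scaling. HMGB2, at 0.013, was at -0.064 with library totals, at -0.064 without a filter and at -0.042 to 0.026 without each library. KPNA1 turned to 0.21 with upper-quartile scaling and was called lower with library totals. CCNE2, at -0.026, was at 0.25 with upper-quartile scaling, 0.0020 with DESeq2 size factors, 0.023 with at least 50 counts, 0.0016 with DESeq2 and -0.16 to 0.10 without each library. The causes were not tested. DNTT, XRCC5, XRCC6, PRKDC, XRCC4 and LIG4 kept their direction and call under all 12 alternatives. Replicate numbers shared by the groups are not stated to mark a batch, and same-numbered libraries did not deviate together (correlation 0.014). The replicate block gave 7107 genes higher and 6856 lower, and changed no call among the 10. Depth limits XRCC4 and NHEJ1, with 50 and 38 reads over the MZ1 libraries and 311 and 9 over the DMSO libraries.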

Other observations

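Class switch recombination and hypermutation act on the same loci in mature B cells. Of 8 genes listed with them 7 had a row and were tested. Of these 6 were lower and 1 higher (median log2 fold change -1.31), where 41.3% of all tested genes were lower and 42.8% higher. APOBEC3G and APOBEC3B were among the 6, and no role at these loci is claimed for them. UNG, the uracil glycosylase that processes deaminated cytosine, had 42 and 43 reads with MZ1 and 1423 and 1493 reads with DMSO, a 28.7-fold fall (edgeR adjusted p = 6.42e-23). The mismatch repair gene MSH6 fell 3.24-fold, with 16.2% of its exons covered by other genes. POLH, the translesion polymerase of hypermutation at A and T, rose 1.73-fold, at 124 and 125 CPM with MZ1 and 71.2 and 73.4 CPM with DMSO.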
